A study of Bactrocera oleae with 8 samples.

Results

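Cytochrome P450 monooxygenases are haem enzymes that insert an oxygen atom from molecular oxygen into a substrate, using electrons passed on from NADPH. In insects the CYP6, CYP9 and CYP28 families are best known for the oxidation of plant toxins and insecticides, the first step in making such compounds excretable. Other P450s work on the insect's own compounds, such as ecdysone and the hydrocarbons of the cuticle. Described here are 2 of the 20516 contig names on the array, contig03604 and contig10157. They were chosen as the contigs with a P450 description that the study named as over-expressed in olive-fed larvae. Contig03604 is described as cytochrome P450-28A1, with its closest hit in *Drosophila yakuba*, and in the cactus-feeding *Drosophila mettleri* CYP28A1 is known as a P450 induced by host plant alkaloids. Contig10157 is described only as a cytochrome P450, with its closest hit a CYP6A1 of the mosquito *Culex quinquefasciatus*. Neither contig had an entry for its reverse strand on the array. Both were singled out by the study because they passed its thresholds on these same arrays, contig03604 against artificial diet in larvae from both kinds of olive and contig10157 in larvae from black olives, so those calls are a description and not independent evidence.

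Each sample was a pool of 20 whole 2nd-instar larvae of wild *B. oleae* stock from a single olive orchard. Larvae fed on green olives (GO) were taken from unripe fruit in September, larvae fed on black olives (BO) were taken from ripe fruit in January, and larvae on artificial diet (AD) hatched in the laboratory from eggs of field-derived females and were fed on yeast, soy hydrolysate, sugar, olive oil and cellulose with preservatives. GO larvae were labelled with Cy5 on all 8 arrays, against BO larvae in Cy3 on 4 arrays and AD larvae in Cy3 on the other 4, all on a single slide. For a green olive comparison, dye and feeding regime cannot be told apart, and neither can fruit, season and rearing in any comparison. The methods describe 4 green olive replicates hybridized with both partners, so the 8 green olive channels may hold 4 pools. Pools of whole larvae hold all tissues, and fewer cells of a type and less RNA per cell cannot be told apart.

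Contig03604 was measured by 4 probes and contig10157 by 3. Probe sequences were not used here, and the contigs were not placed on a genome. The primers that the study designed for its RT-qPCR of contig03604, which was not analysed here, are shown because they are the sequences at hand that identify this transcript, each written 5′ to 3′.
contig03604 forward primer: gctttctgcggcacattgaa
contig03604 reverse primer: aatgcgtgacagtgctcaga

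Both P450 contigs had the same order of levels, with BO larvae highest, GO larvae between and AD larvae lowest. Levels are normalized log2 intensities, the mean over a contig's probes, and are compared only between samples. Contig03604 averaged 8.52 ± 0.680 in GO larvae (SD, n = 8 channels), 9.20 ± 0.403 in BO larvae (n = 4) and 6.93 ± 0.268 in AD larvae (n = 4). Contig10157 averaged 6.67 ± 0.278 in GO larvae, 7.43 ± 0.315 in BO larvae and 6.33 ± 0.125 in AD larvae. A contig was called where the adjusted p of limma (Benjamini-Hochberg, over all contigs) was below 0.05 and the absolute log2 fold change above 1.

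**Figure D1:**
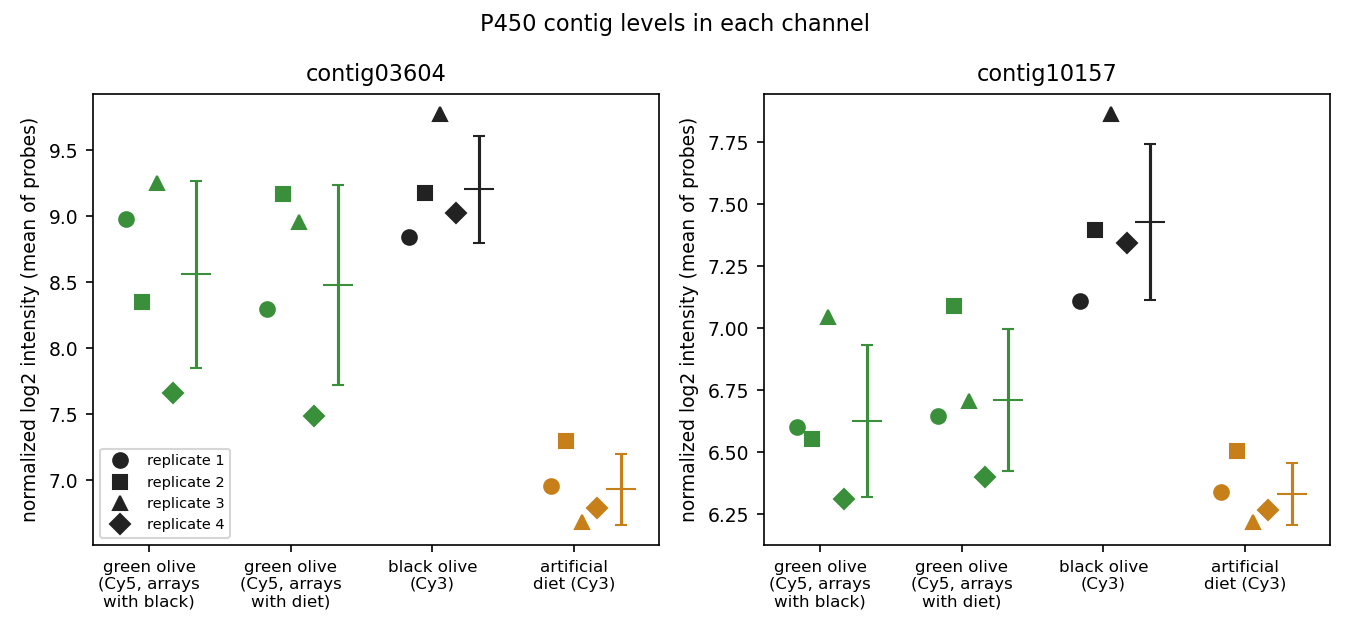
Normalized log2 intensity of contig03604 and contig10157 in each channel, with marker shape for the replicate number and the mean ± SD of each group at its right. All 4 black olive values lie above all 4 artificial diet values for both contigs, and replicate 4 has the lowest green olive value on both sets of arrays.

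Green olives against artificial diet asks which transcripts differ in larvae in unripe, phenolic-rich fruit. Contig03604 was at 8.30, 9.17, 8.96 and 7.49 in GO larvae on arrays 1 to 4 of this set, against 6.95, 7.29, 6.68 and 6.79 in AD larvae. The lowest GO value was above the highest AD value, for which no share over all contigs was computed. GO exceeded AD on every array, as it did for 20.9% of all contigs. The log2 ratios of the 4 arrays were 1.34, 1.87, 2.28 and 0.70, so that replicate 4 differed least. Contig03604 was 2.92-fold higher in GO larvae, a log2 fold change of 1.55 (SE 0.283, 95% interval 0.90 to 2.20, adjusted p = 0.0160), and was called, as were 0.77% of all contigs in this direction. It ranked 73 by fold change among the 158 contigs called higher. With the processed signals and with the deposited value table the log2 fold change was 2.60 and the call was kept. The call was lost without array 1, 2 or 3 of this set (adjusted p = 0.0513, 0.0560 and 0.0651).

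Contig10157 was at 6.65, 7.09, 6.71 and 6.40 in GO larvae on the same arrays, against 6.34, 6.51, 6.22 and 6.27 in AD larvae. The groups overlapped, since the GO value of replicate 4 was below the AD value of replicate 2, but within each array GO was above AD, as it was for 20.9% of all contigs. The log2 ratios were 0.31, 0.59, 0.49 and 0.13, again smallest in replicate 4. The log2 fold change was 0.38 (SE 0.0960, adjusted p = 0.0429), below the fold threshold, and 11% of all contigs had an adjusted p below 0.05 here at any fold. No AD channel had a probe of this contig well above background, nor had GO replicates 3 and 4 on these arrays. A bound takes the AD level as the higher of its own signal and the lowest signal well above background on that array. So taken, GO larvae were 1.27-fold higher, but with GO levels partly at background this is not a firm bound. With the scanner's processed signals the log2 fold change was 1.26 and the contig was called (adjusted p = 0.0109).

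Black olives against artificial diet sets 2 groups with the same dye, never on the same array, against each other. Contig03604 was at 8.84, 9.17, 9.77 and 9.02 in BO larvae, replicates 1 to 4, against the AD levels of 6.68 to 7.29 above. No BO pool came near an AD pool. In the fit, which runs through the green olive channels, contig03604 was 4.57-fold higher in BO larvae, a log2 fold change of 2.19 (SE 0.400, 95% interval 1.27 to 3.11, adjusted p = 0.0275). It was called, as were 0.327% of all contigs in this direction, and ranked 16 among those 67. The fit's standard error was large, with only 3.7% of contigs above it. The call was lost on leaving out any of 6 of the 8 arrays (adjusted p up to 0.0770) and was kept only without BO replicate 1 or AD replicate 4. With slide row added to the model, where 3 of the 4 BO arrays lay in row 1 and 3 of the 4 AD arrays in row 2, the log2 fold change was 2.36 with an adjusted p of 0.0687, and within rows 1 and 2 it was 1.75 and 2.98.

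The Cy3 levels alone leave out the green olive channels. For contig03604 the BO mean exceeded the AD mean by 2.27 log2 units (exact two-sided permutation test over the 8 pools, p = 0.0286, the smallest that 70 splits allow, 0.0476 after adjustment over the 5 such tests run). A fit on the Cy3 channels alone gave a standard error of 0.208 and an adjusted p of 0.000828. Within rows 1 and 2 of the slide this Cy3 difference was 2.31 and 2.10. BO levels lay wholly above AD levels for 10.3% of all contigs. Both contigs were chosen for calls on these same arrays, so tests of their Cy3 levels describe the same difference and are no independent support.

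Contig10157 was at 7.11, 7.40, 7.86 and 7.34 in BO larvae, against AD levels of 6.22 to 6.51. The groups did not overlap. The log2 fold change was 1.18 (SE 0.136, 95% interval 0.87 to 1.49, adjusted p = 0.00487), 2.26-fold, and the contig was called, at rank 49 of the 67. The Cy3 levels alone differed by 1.10 log2 units (exact permutation p = 0.0286, 0.0476 adjusted). No AD channel had a probe well above background. With the AD level taken as for a bound, BO larvae were 2.09-fold higher. In BO larvae CUST_8869 was well above background in 3 and CUST_8871 in 2 of the 4 channels, so this is not a firm bound. The call was kept on leaving out each of the 8 arrays, with log2 fold changes of 1.10 to 1.28.

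Green against black olives asks what differs between unripe and ripe fruit. On the arrays of this set, contig03604 was at 8.98, 8.35, 9.25 and 7.66 in GO larvae, and its BO partners were those given above. GO was above BO on array 1, with a log2 ratio of 0.14, and below it on the other 3, with ratios of -0.83, -0.52 and -1.36. The log2 fold change of -0.64 (SE 0.283, 95% interval -1.29 to 0.0049, adjusted p = 0.142) did not pass the test. For contig03604 the levels in GO and BO larvae therefore did not differ beyond their spread, although the interval includes a difference of more than 1 log2 unit.

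Contig10157 was at 6.60, 6.55, 7.05 and 6.31 in GO larvae on these arrays, below its BO partner each time, as were 19.3% of all contigs. The log2 ratios were -0.51, -0.84, -0.82 and -1.03. Of its 3 probes, 1, 1, 2 and 0 were well above background in these GO channels, so the size of the difference is not exact. The log2 fold change was -0.80 (SE 0.0960, adjusted p = 0.00132), 1.74-fold lower in GO larvae, but below the fold threshold. In this comparison 23% of all contigs had an adjusted p below 0.05 at any fold and 0.512% were called lower. Contig10157 passed the fold threshold with a normexp offset of 16 (log2 fold change -1.09), with no background correction (-1.09) and with the processed signals (-2.10).

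The single probes of a contig gave BO over AD differences of unequal size. In contig03604 the probe CUST_11353 had unnormalized median signals of 919, 1818, 2456.5 and 1229 in BO larvae over a local background of 29 to 31, against 175, 192, 154 and 149 in AD larvae over 27 to 31. This probe was well above background in every channel and gave a log2 fold change of 2.93 for BO over AD. The probe CUST_11355 gave 1.70, with signals of 117, 261.5, 333.5 and 225 in BO larvae and 34, 53, 48 and 46 in AD larvae, and was well above background in none of the 4 AD channels, so that its 1.70 is not an exact difference. CUST_11354 and CUST_11356 gave 2.05 and 2.08. CUST_11356 was well above background in only 1 of the 4 AD channels, so its value is not exact either. The fold changes of contig03604 against AD larvae thus rest in part on signals near background. All 4 probes were higher in GO than in AD larvae on each of the 4 arrays.

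For contig10157 the probe CUST_8870 read 103, 183, 240 and 198 in BO larvae. It was well above background in all 4 BO channels, in 5 of the 8 GO channels and in none of the 4 AD channels. Log2 fold changes for BO over AD were 1.23, 1.44 and 0.87 for CUST_8869, CUST_8870 and CUST_8871. With the scanner's processed signals, which carry no added offset, the probes of contig03604 gave 3.21 to 3.86 and those of contig10157 gave 3.04 to 3.62. The order of the probes of contig03604 then changed, with CUST_11355 highest at 3.86 and CUST_11353 at 3.52.

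**Figure D2:**
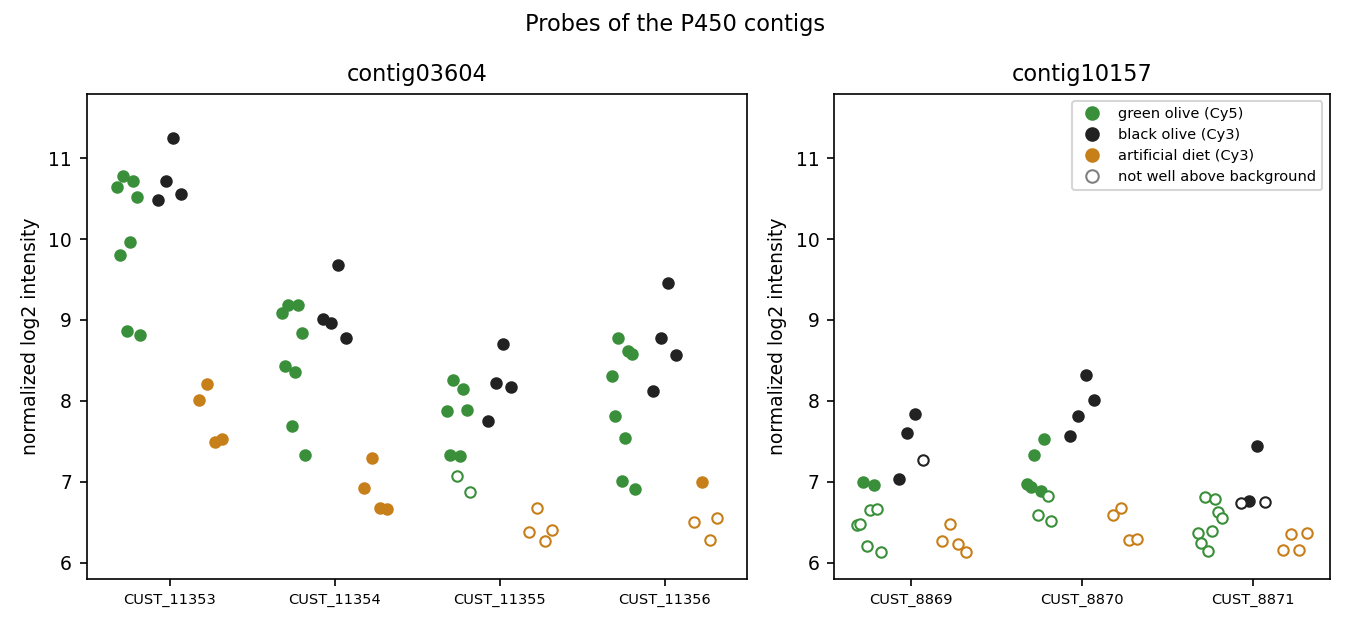
Normalized log2 intensity of each probe of contig03604 and contig10157 in green olive, black olive and artificial diet channels, with open symbols where the spot was not well above background. Every probe of contig10157 is open in all 4 artificial diet channels, and CUST_11355 of contig03604 is too.

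The measured Cy3 difference between BO and AD larvae was 1.18 log2 units larger for contig03604 than for contig10157. The AD level of contig10157 was not well above background, and its BO level only in part, so its difference is not exact and may be too small. For contig03604, CUST_11355 and CUST_11356 were not well above background in all AD channels, so its difference may be too small as well. This gap is therefore not bounded in either direction, and the sizes of the 2 responses were not shown to differ. With the processed signals, an alternative chosen after seeing the data, the differences were 3.88 and 3.67 log2 units, with a gap of 0.20. The fold changes of the fit were then 3.50 for contig03604 and 3.36 for contig10157, and both were called.

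**Figure D3:**
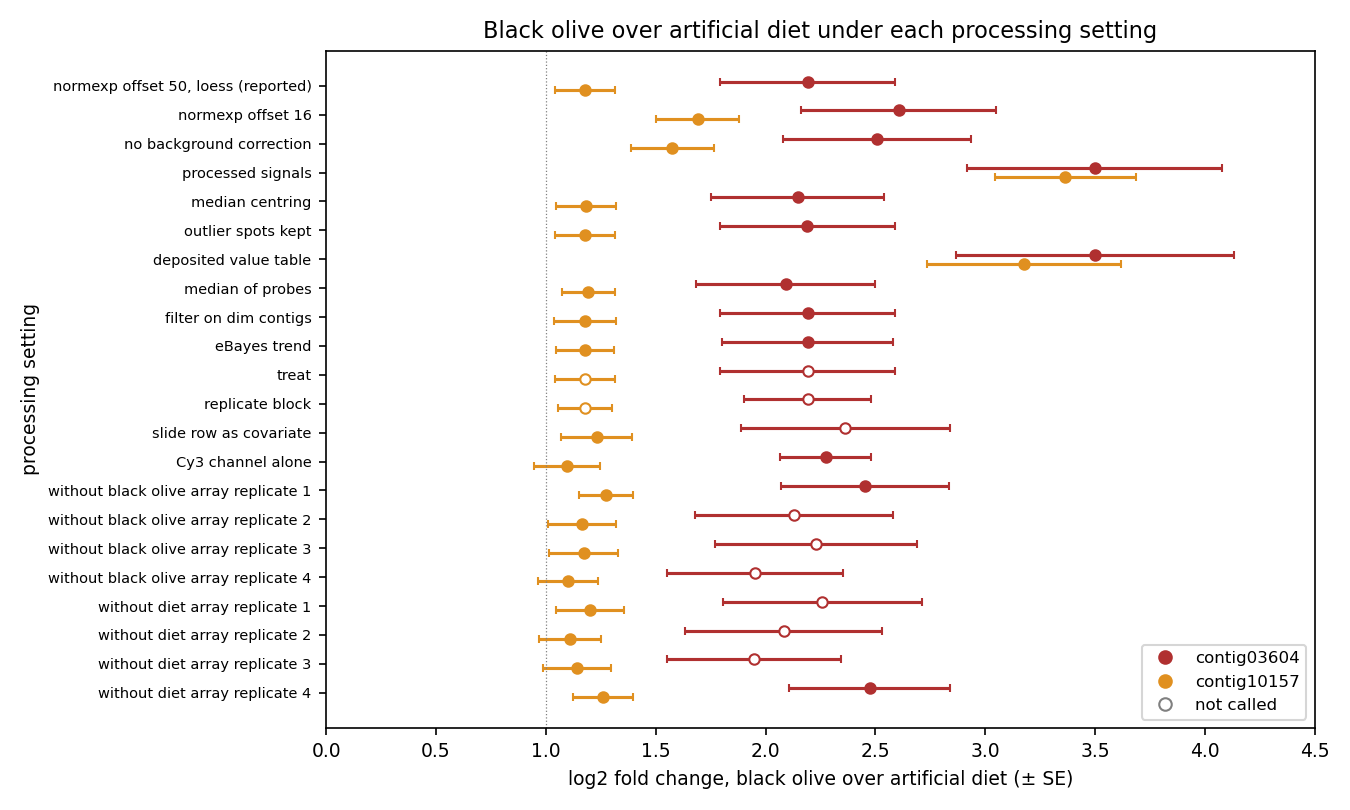
Log2 fold change of black olive over artificial diet larvae for contig03604 and contig10157 (± SE) under each processing setting, with open symbols where the contig was not called and the dotted line at the fold threshold of 1. Both contigs were higher in black olive larvae in all settings shown, and the gap between them narrows with the processed signals and with the deposited value table.

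Contig03604 was among the more variable contigs within a feeding regime. Its 8 GO channels spanned 1.76 log2 units and had an SD of 0.680, against a median SD of 0.109 over all contigs, and only 1.43% of contigs had a larger one. In BO larvae its SD was 0.403 (median of all contigs 0.143) and in AD larvae 0.268 (median 0.113). Contig10157 had SDs of 0.278 in GO, 0.315 in BO and 0.125 in AD larvae. The 4 GO levels on the arrays shared with BO and the 4 on those shared with AD covered the same range. Sorted from low to high within each set, they differed by at most 0.175 log2 units for contig03604 and 0.104 for contig10157. The set means differed by -0.08 and 0.08 log2 units, AD arrays minus BO arrays. The 2 sets may hold the same pools, so a test over 8 channels as separate pools says nothing of how far they are alike.

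The 2 contigs varied together from sample to sample. Replicate 4 held the lowest GO level of each contig on both sets of arrays, and BO replicate 3 held the highest BO level of each. Their levels correlated with r = 0.86 over the 16 channels, 0.865 over the 8 GO channels and 0.992 over the 8 Cy3 channels. These are descriptions, since both contigs were read from the same labelled samples and the groups themselves differ.

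The contigs whose pattern over the 16 channels was most like a member's were taken as the 5 with the highest Pearson correlation among 13908 contigs well above background in a regime. Contig09543, for which the study's lists give no description, came first for contig10157 (r = 0.964) and at place 4 for contig03604 (r = 0.892). It was higher in BO than in AD larvae with a log2 fold change of 2.52 (adjusted p = 0.00198), and lower in GO than in BO larvae with a log2 fold change of -1.56, and was called in both. The 3 contigs above it for contig03604, s_contig01688_(92-838), rc_contig00334 and s_contig00113_(95-910), had correlations of 0.91 to 0.93 but log2 fold changes of only 0.30 to 0.31 between BO and AD larvae, none of them called. For contig10157 the next were contig02144 (r = 0.907) and contig11776 (r = 0.902), also not called in that comparison.

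Most of the other P450 names found on the array had negative log2 fold changes in olive-fed against AD larvae. A minority were called. At any fold, 8 were lower and 1 higher in GO against AD larvae with an adjusted p below 0.05. Of all 20516 contigs, 1105 were lower and 1162 higher in this way. In BO against AD larvae 7 were lower and 0 higher, against 548 and 379 of all contigs. These names were 15 fragments from degenerate PCR, named boCYP, which were put on the array without regard to these data. The other 3 were contigs that the study's lists of called contigs describe as P450s. Any P450 contig not on those lists is missing here, so the 18 may not be the whole family. In BO against AD larvae, 6 of these 18 were called lower (0.609% of all contigs were) and none higher, while 15 had a negative log2 fold change. Their median was -0.45, against 0.0092 over all contigs. In GO against AD larvae 4 were called lower (0.283% of all contigs were) and none higher, while 12 had a negative and 6 a positive log2 fold change, with a median of -0.41. Of the 6, boCYP4G1-2 had an adjusted p of 0.0200 at a log2 fold change of 0.26. GO larvae were 1.09-fold higher with its AD level, not well above background, taken as for a bound. GO replicates 2 and 3 on these arrays were not well above background either, so this is not a firm bound. Between GO and BO larvae none of the 18 was called, against 2.25% of all contigs in either direction, and the median was 0.09. Contig03604 and contig10157 were the only names of the 20 called higher in any comparison. Both had been chosen for such calls, so this follows from the choice. None of the 15 boCYP fragments was called higher, against 0.77% of all contigs in GO and 0.327% in BO against AD larvae. The 3 contigs were listed because they were called, so of the 18 only the boCYP fragments are free of that choice, and 3 of these 15 were called lower in BO and 2 in GO larvae.

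Of the CYP6 fragments, boCYP6A9-5 averaged 12.43 ± 0.164 in GO, 12.29 ± 0.231 in BO and 13.83 ± 0.231 in AD larvae. It was lower by log2 fold changes of -1.44 in GO (adjusted p = 0.000289) and -1.61 in BO larvae (adjusted p = 0.00190) against AD. BoCYP6A14-7 was lower by -1.26 in GO (adjusted p = 3.3e-05) and -1.08 in BO larvae (adjusted p = 0.00139). BoCYP6A38V1-9 was at -0.94 in GO and -0.84 in BO larvae, past the adjusted p threshold in both but not the fold threshold. BoCYP6A13-6, at 0.26 and 0.16, BoCYP6A28-8, at 0.01 and -0.34, and boCYP6P9-10, at -0.29 and -0.30, passed no threshold.

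Among the CYP9 fragments, boCYP9F2-12 was lower in BO than in AD larvae, with a log2 fold change of -1.13 (adjusted p = 0.0494), while its value in GO larvae was -0.60 (adjusted p = 0.0702). Its BO levels were 7.40, 6.37, 7.16 and 7.29 in replicates 1 to 4, so the fold change in BO larvae rests in part on replicate 2. BoCYP9B2-11 was dim, with a probe well above background in 1 of 8 GO channels. It was at -0.40 in GO larvae against AD (adjusted p = 0.0203, below the fold threshold) and at -0.13 in BO larvae. With the GO level taken as for a bound, GO larvae were 1.30-fold lower than AD larvae. Not all of its probes were well above background in AD larvae, so this is not a firm bound. BoCYP18A1-15, named after the *Drosophila* enzyme that inactivates ecdysone, was at -0.42 in GO (adjusted p = 0.0123, below the fold threshold) and -0.06 in BO larvae against AD. BoCYP4G1-1, named after the *Drosophila* oenocyte enzyme that makes cuticular hydrocarbons, was at -0.22 and -0.30 and passed neither threshold. The remaining fragments, boCYP12A3-13, boCYP12B2-14, boCYP4AC1-4, boCYP4D10-3 and boCYP4G1-2, lay between -0.78 and 0.58 in both comparisons, and none was called.

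The 3 further contigs fell in BO against AD larvae. Contig04361, described as a P450 monooxygenase, had log2 fold changes of -1.25 in GO and -1.09 in BO larvae, and contig00383, described as CYP6D8, had -1.84 and -1.40, all 4 called. Contig02809 was at -1.26 in GO larvae, which did not pass (adjusted p = 0.0641), and at -2.45 in BO larvae (adjusted p = 0.0411), the largest difference between BO and AD larvae among the 20 P450 names. Its BO levels had an SD of 1.10, against 0.333 in GO and 0.282 in AD larvae. They were 9.98, 7.40, 9.11 and 9.37 in replicates 1 to 4, so the size of this difference rests in part on replicate 2. Contig04361 and boCYP6A14-7 correlated with r = 0.967 over the 16 channels, and contig02809 and boCYP9F2-12 with r = 0.977, the 2 highest of the 190 pairs of P450 names. Whether such pairs are parts of a single transcript was not tested, so the 6 names called lower may stand for fewer genes.

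**Figure D4:**
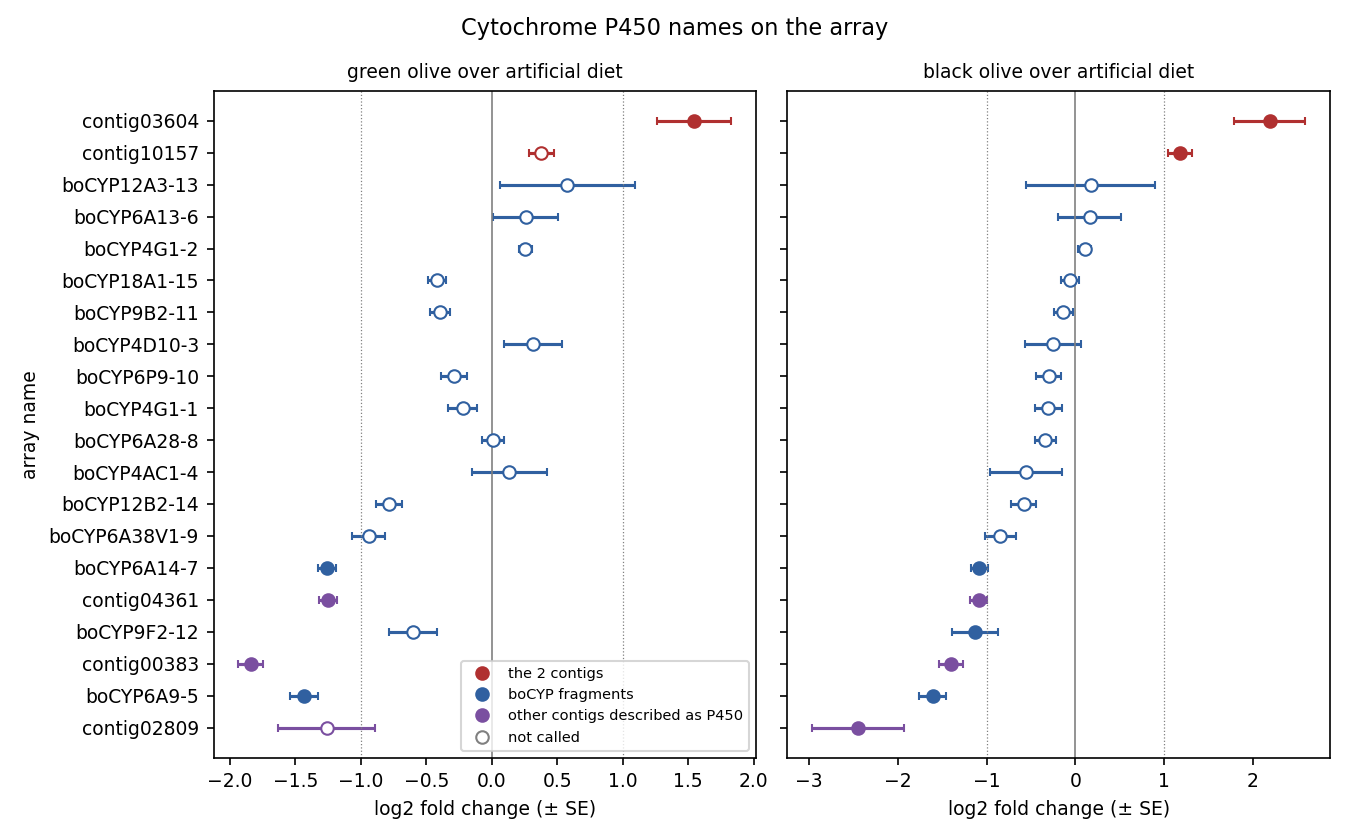
Log2 fold change (± SE) of the 20 P450 names found on the array, for green and for black olive over artificial diet larvae. Filled symbols mark called names and dotted lines the fold threshold. Contig03604 and contig10157 are at the top of the right panel, and the 6 names called lower there are at its foot.

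The study lists 11 further contigs for detoxification, which it chose by calls on these arrays, so counts of calls among them are only a description. Of the 11, 3 were called higher in BO than in AD larvae (0.327% of all contigs were). These were contig09042 and contig07812, glutathione S-transferases, which conjugate reactive compounds with glutathione, with log2 fold changes of 1.17 and 1.11, and contig03020, an N-acetyltransferase, with 1.11. In GO against AD larvae 3 of the 11 were called higher (0.77% of all contigs were), among them contig04001, a UDP-glucosyltransferase, with 1.85. The median of the 11 was 0.38 for GO and -0.60 for BO against AD larvae.

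On the 8 arrays, 60.6 to 64.1% of spots were well above background in Cy5 and 56.9 to 67.2% in Cy3, lowest for BO replicate 4. No spot was saturated, and no spot of the 2 contigs was marked as an outlier. Replicates of a regime were pools of different larvae, and 4 arrays a set limit the precision.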

How the data were processed

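The authors deposited scanner files, written by Feature Extraction 10.7.3.1, with the median intensity of each spot and its local background in both channels, not normalized, and a processed intensity corrected for background and dye. Log10 ratios of these processed signals were also deposited for the whole series, and they match those in the scanner files to within 0.005.

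Following the study's methods, median intensities were corrected with normexp (offset 50) and normalized by loess within and Aquantile between arrays in limma 3.58.1 (R 4.3.3, with files read by version 1.17.8 of data.table). The offset compresses the fold changes of dim probes. Control spots (1319) were dropped once the background was corrected, and outlier spots (46 to 128 an array) had no weight. Spots were averaged per probe, then probes per contig. A single linear model with empirical Bayes statistics was fitted to all 8 arrays (6 residual and 2.21 prior degrees of freedom). Black olives against artificial diet is the difference of its coefficients. A channel level is the mean log intensity plus (Cy5) or minus (Cy3) the log2 ratio over 2. The fit was tested on simulated data.

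The 2 contigs and the lists were chosen with earlier results of these data known. Names are the contigs, every array name holding CYP or described by the study as P450, and the 5 most alike contigs. Alternatives covered the background correction, signal column, normalization, probes, spots, filter, variance model, test, block, slide row and each array left out.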

Additional observations from a re-analysis of the deposited data

How the results depend on the processing

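Both contigs stayed higher in BO than in AD larvae, and in GO than in AD larvae, under every alternative run. Scoring against a fold of more than 1 log2 unit (limma's treat) ended the calls of contig03604 (2.19 in BO, 1.55 in GO against AD) and of contig10157 (1.18 in BO), all with an adjusted p of 1. With the replicate number as a block, the BO against AD values were unchanged at 2.19 for contig03604 (adjusted p = 0.0817) and 1.18 for contig10157 (adjusted p = 0.0567), and all contigs called numbered 34 for BO against AD and 120 for GO against AD. Same-numbered green olive channels deviated together in replicate 4 (r = 0.855) but not in 1 to 3 (-0.109, -0.60 and -0.149), so the numbers do not pair the arrays. These correlations took contigs well above background in a regime, with each channel as its deviation from the mean of its set. Green olive channels 1, 2, 3 and 4 of the BO arrays correlated best with 3, 1, 2 and 4 of the AD arrays (r = 0.722, 0.90, 0.898 and 0.855). Each had a different best partner. This is a hint from the data, not from the labels, that the sets hold the same 4 pools under other numbers, and no fit was made with it. The slide row as a covariate gave 2.36 (adjusted p = 0.0687) for contig03604 and 122 contigs called for BO against AD. For contig10157, GO against BO passed the fold threshold at -1.09 with offset 16, -1.09 without background correction, -2.10 with processed signals and -2.10 with the value table, and GO against AD at 1.26 with processed signals. The gap between the contigs was 0.20 with processed signals, and the contig10157 difference between green olive sets turned to -0.31.

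The contigs called in all were 216 (GO against AD), 462 (GO against BO) and 192 (BO against AD). They numbered 827, 1016 and 345 with processed signals, 38, 19 and 17 with treat, 613 and 961 with the value table (the green olive comparisons), and 294 with Cy3 alone (BO against AD). The 6 other P450 names called lower in BO against AD larvae were 3 with median centring, 0 with treat and 1 with the replicate block, and the 4 in GO against AD were 1 with treat. None of the 18 was called higher in any setting but the processed signals, with 1 in GO against AD.

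Leaving out each array gave 129 to 235, 393 to 536 and 118 to 206 contigs called for GO against AD, GO against BO and BO against AD. They numbered 129 without AD replicate 4, and for BO against AD 123 and 118 without AD replicates 1 and 3. Contig03604 ranged over 1.30 to 1.83, -0.90 to -0.40 and 1.95 to 2.47 and contig10157 over 0.31 to 0.46, -0.90 to -0.72 and 1.10 to 1.28. The other P450 names called lower were 4 to 5 in both comparisons. Cy3 differences were 2.08 to 2.39 and 0.95 to 1.20, and their gap 1.13 to 1.24. The difference between green olive sets was -0.38 to 0.25 for contig03604 and -0.044 (without AD replicate 2) to 0.22 for contig10157, with no settled sign. Causes were not tested. Mean pixel signals in place of median ones were planned but not run. Precision is limited by 4 arrays a set and, for contig10157, by signals near background.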
